A study of Saccharomyces cerevisiae with 6 samples.

Results

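The iron uptake regulon of budding yeast (Saccharomyces cerevisiae) is described here through 10 genes: FET3, FTR1, FIT1, FIT2, FIT3, ARN1, ARN2, SIT1, ENB1 and TIS11. They were taken by symbol from the platform's probe annotation, out of 5583 genes that it names. The 10 genes are carried by 11 of the 7680 spotted features, since TIS11 has 2 features and the other 9 genes have 1 each. All 11 features had a value on all 6 arrays, which gives 66 values.

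Each two-colour array compared total RNA of cells carrying yra1-1, a temperature-sensitive allele of the mRNA export factor gene YRA1, with total RNA of Yra1 wild-type cells. Per the labels, both RNAs of every array came from cells at 37 °C, where the mutant cannot grow. Neither the time at that temperature nor the iron content of the medium nor the strain background was stated. The mutant RNA is labelled as channel 1 on arrays 1, 4 and 6 and as channel 2 on arrays 2, 3 and 5, and the wild-type RNA takes the opposite channel. The title of array 1 alone has the unexplained letters mex before the strain name, and its RNAs were taken from its channel labels, which read as on the other arrays. Nothing in the labels says that the arrays came from separate cultures, so every p-value below measures the spread between arrays, which may be technical.

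Yeast answers a shortage of iron through the transcription activator Aft1 and its paralog Aft2, which switch on a common set of genes. Some of these genes bring iron through the plasma membrane after reduction and reoxidation. Others hold and import iron bound to siderophores, the small iron chelators that microbes secrete, and TIS11 (also CTH2) encodes a zinc finger protein that promotes the decay of mRNAs for proteins that use iron.

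The values are log ratios of the channels, converted to log2 and set to 0 at the median of each array. The channel in the numerator is not stated. Each value is therefore given in 2 readings: turned, with the sign of arrays 2, 3 and 5 reversed so that the labelled mutant channel has the same place on each array, and as deposited. A positive turned value means more RNA in yra1-1 than in wild type if the deposited ratio is channel 1 over channel 2, and less if it is channel 2 over channel 1. If the columns had already been turned by the authors, the deposited reading is the one that compares the strains. The direction is not settled, so results are given as positive or negative. Across all features as deposited, pairs of arrays with the same channel assignment correlated at 0.04 to 0.39, with a median of 0.26. Pairs of opposite assignment correlated at −0.135 to 0.33, with a median of −0.03. YRA1 was negative on array 1 (−1.39) and positive on arrays 2 to 6 (1.00 to 3.49) as deposited; TRP1 had the same signs and URA3 the opposite ones. On arrays 2 to 6 the signs of YRA1, TRP1 and URA3 thus did not follow the labelled channel, and array 1 had the reverse signs. In the turned reading the signs of these genes therefore differ among arrays 2 to 6. If the signs of these genes mark the strains, the turned reading does not compare the strains the same way on every array. The columns as deposited would then do so only with array 1 turned over. Whether they mark the strains, and why array 1 stands apart, was not tested. The call that follows is also given without array 1 and with array 1 turned over.

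In the turned reading none of the 11 features passed an adjusted p of 0.05 (limma, Benjamini-Hochberg over all features), and 0.0130% of all features did. At an unadjusted p under 0.05 there was 1 member, FTR1, against 13.0% of all features. The median of the fitted values over the 11 features was −0.06, beside 0.04 over all features, with 5 features positive and 6 negative. As deposited, 1 feature passed, TIS11 feature 3902, against 1.65% of all features, and it was also the only member at an unadjusted p under 0.05, against 13.5% of all features. With array 1 turned over, 0 members passed as deposited, and 2 features passed among all those tested. The median was 0.04 as deposited, beside 0.02 over all features, with 7 features positive and 4 negative. So in neither reading did the genes lie together on 1 side.

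**Figure D1:**
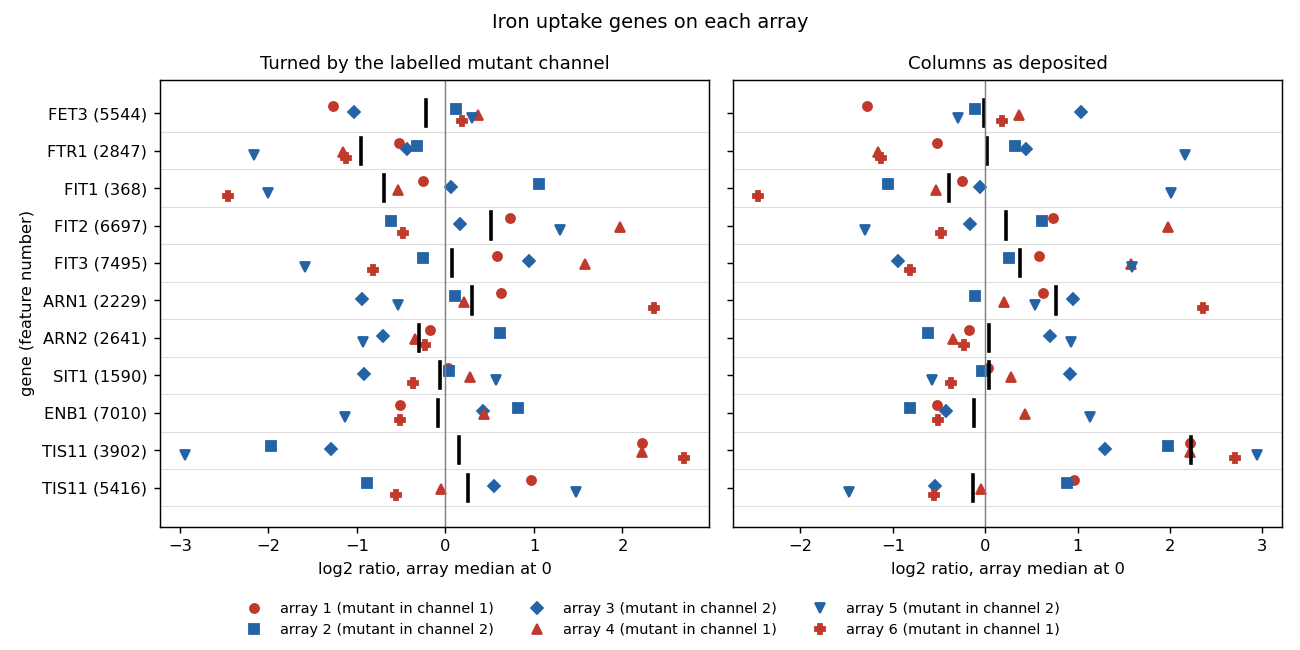
Log2 ratios of the 11 features (rows, ordered by role) on each of the 6 arrays, turned by the labelled mutant channel (left) and as deposited (right), each array with its median at 0. Symbols stand for arrays, red for the mutant RNA in channel 1 and blue for channel 2, and black bars are means over the arrays. TIS11 feature 3902 is positive on 6 arrays as deposited and FTR1 is negative on 6 arrays when turned, while the other features have arrays on both sides of 0 in each reading.

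FET3 and FTR1 encode the partners of the high-affinity reductive pathway: Fet3 is the multicopper oxidase that reoxidises iron at the cell surface, and Ftr1 is the permease that carries it through the membrane. FTR1 (feature 2847) had turned values of −0.52, −0.32, −0.44, −1.16, −2.17 and −1.13 on arrays 1 to 6. It was negative on all 6 arrays, and 7.28% of all features with complete values kept 1 sign, positive or negative, on the 6 arrays in this reading. The sign of FTR1 as deposited thus followed the labelled channel, with 3 arrays on each side of 0. The signs of YRA1, TRP1 and URA3 on arrays 2 to 6 did not follow it. The fitted turned value of FTR1 was −0.96 ± 0.35 (SE, limma, adjusted p = 0.293), a 1.94-fold difference with a 95% interval from −1.72 to −0.20, and it did not pass over all features. On the 2 days that hold both channel assignments the turned mean of FTR1 was −1.65 (arrays 5 and 6) and −0.48 (arrays 1 and 3).

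FET3 (feature 5544) had turned values of −1.28, 0.11, −1.04, 0.37, 0.30 and 0.19 on arrays 1 to 6, with 4 positive and 2 negative. The 2 negative arrays, 1 and 3, are those of the fourth labelled day, where the mean was −1.16, and the mean on the first day was 0.24. The fitted turned value was −0.22 ± 0.35 (SE, adjusted p = 0.879). As deposited FET3 was at −0.02 ± 0.35 and FTR1 at 0.02 ± 0.35, with adjusted p-values of 0.993 and 0.991. The genes of the oxidase and its permease had the same sign on 2 of 6 arrays, so their values did not move together.

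FIT1, FIT2 and FIT3 encode mannoproteins of the cell wall that help to retain siderophore-bound iron. FIT2 and FIT3 are neighbours on chromosome XV, with 0 genes between them in the R64 gene table, and their features (6697 and 7495) lie far apart by identifier. FIT2 had turned values of 0.73, −0.62, 0.17, 1.97, 1.30 and −0.48 on arrays 1 to 6. FIT3 had turned values of 0.58, −0.26, 0.94, 1.57, −1.58 and −0.82 on the same arrays. The neighbouring genes had the same sign on 5 of 6 arrays and opposite signs on array 5.

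FIT1 (feature 368, chromosome IV) had turned values of −0.25, 1.05, 0.06, −0.54, −2.01 and −2.46. Its largest sizes were on arrays 5 and 6, the 2 arrays of the first day, where the turned mean was −2.23, against −0.10 on the fourth day. FIT1 shared its sign with FIT2 on 2 of 6 arrays and with FIT3 on 3. The fitted turned values were −0.69 ± 0.45 for FIT1 (SE, adjusted p = 0.577), 0.51 ± 0.40 for FIT2 (adjusted p = 0.671) and 0.07 ± 0.42 for FIT3 (adjusted p = 0.974). As deposited they were −0.39 ± 0.45, 0.23 ± 0.40 and 0.37 ± 0.42, with adjusted p-values of 0.820, 0.896 and 0.816. None of the 3 passed in either reading.

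ARN1, ARN2, SIT1 (also ARN3) and ENB1 (also ARN4) encode a family of related transporters that take up intact iron-siderophore complexes. Spots of related genes can share hybridised RNA, and the specificity of these spots was not stated. ARN1 (feature 2229), a transporter of ferrichrome-type siderophores, had values of 0.62, −0.11, 0.95, 0.21, 0.54 and 2.36 as deposited on arrays 1 to 6. It was positive on 5 arrays and just below 0 on array 2, and only 1.30% of all features on array 6 had a value as high. Its fitted value as deposited was 0.76 ± 0.36 (SE, adjusted p = 0.403, interval −0.04 to 1.56), a 1.69-fold difference that did not pass. In the turned reading ARN1 was at 0.30 ± 0.36 (adjusted p = 0.824).

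ARN2 (feature 2641), known for uptake of triacetylfusarinine, lies near ARN1 on chromosome VIII, with 6 genes between them. Its turned values were −0.18, 0.62, −0.70, −0.35, −0.93 and −0.23, with 5 negative arrays and 1 positive. The fitted turned value of ARN2 was −0.30 ± 0.33 (SE, adjusted p = 0.796), and ARN1 and ARN2 had the same sign on 3 of 6 arrays. SIT1 (feature 1590), the ferrioxamine transporter gene, had turned values of 0.03, 0.04, −0.92, 0.27, 0.58 and −0.37 and a fitted turned value of −0.06 ± 0.33 (adjusted p = 0.971).

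ENB1 (feature 7010), the enterobactin transporter gene, had turned values of −0.52, 0.82, 0.42, 0.43, −1.14 and −0.51. Its fitted turned value was −0.08 ± 0.36 (SE, adjusted p = 0.964), with 3 arrays on each side of 0. As deposited ARN2, SIT1 and ENB1 were at 0.04, 0.04 and −0.12, with adjusted p-values of 0.981, 0.982 and 0.945. Over the 6 pairs within this transporter family, the members of a pair had the same sign on 3 or 4 of 6 arrays.

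**Figure D2:**
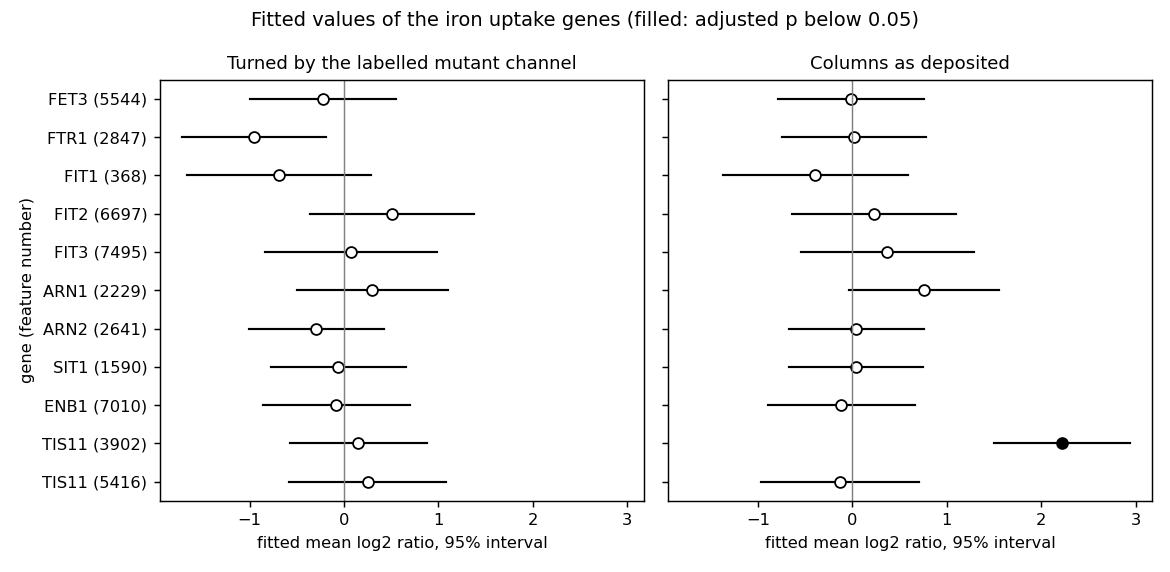
Fitted mean log2 ratio of each feature (points) with its 95% interval (lines), turned by the labelled mutant channel (left) and as deposited (right), over 6 arrays. The filled point, TIS11 feature 3902 as deposited at 2.22, is the only one with an adjusted p below 0.05; FTR1, turned, is the only other feature whose interval leaves out 0.

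TIS11 feature 3902 had the largest value of the regulon, and it lay on the positive side of every array as deposited. The values were 2.22, 1.98, 1.29, 2.22, 2.95 and 2.70 on arrays 1 to 6, and between 0.690% and 6.61% of all features on an array had a value as high. The fitted value as deposited was 2.22 ± 0.33 (SE, limma, adjusted p = 0.0111, interval 1.50 to 2.95), a 4.67-fold difference. Of all features with complete values, 8.09% kept 1 sign on the 6 arrays as deposited. Because the sign did not follow the labelled channel, the turned values cancelled: 2.22, 2.22 and 2.70 on arrays 1, 4 and 6 stood against −1.98, −1.29 and −2.95 on arrays 2, 3 and 5, with a fitted turned value of 0.15 ± 0.33 (adjusted p = 0.924).

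The second spot of the same gene gave other values. TIS11 feature 5416 had 0.96, 0.88, −0.55, −0.05, −1.47 and −0.56 on arrays 1 to 6 as deposited, with 2 positive and 4 negative. Its fitted value was −0.13 ± 0.38 as deposited (SE, adjusted p = 0.942) and 0.25 ± 0.38 when turned (adjusted p = 0.874). Feature 3902 was higher than feature 5416 on 6 of 6 arrays as deposited, by 1.25, 1.09, 1.84, 2.26, 4.42 and 3.26. The mean difference was 2.35 (exact two-sided sign permutation test, p = 0.03125, n = 6, the smallest p that 6 arrays allow), and in the turned reading it was −0.10 (exact p = 1). Among the 1094 genes with exactly 2 features and complete values, TIS11 included, 24 (2.19%) had a mean difference of at least this size, and the median size was 0.35. Both features carry 1 gene symbol, so this difference is between spots and not between strains. TIS11 was chosen with earlier results of these data known, so the exact p-value only describes this pair.

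Feature 3902 shared its value with the feature next to it on 4 of 6 arrays. On arrays 2, 3, 4 and 6 its value was identical in the deposited table to that of feature 3903. That feature carries ACF2, a gene for an endoglucanase with a link to actin assembly. On array 2 the value of feature 3902 was also identical to that of feature 3901, which carries DCN1. On arrays 1 and 5, where the values were not shared, TIS11 lay at 2.22 and 2.95, ACF2 at 0.47 and −0.22 and DCN1 at −0.10 and 1.15. The fitted value of ACF2 feature 3903 as deposited was 1.40 ± 0.40 (SE, adjusted p = 0.120) and that of DCN1 feature 3901 was 1.24 ± 0.40 (adjusted p = 0.170). These 4 shared values were the only repeated ones among the 66 values of the regulon, while 3521 of 45991 values were repeated over all features. By feature, 9.09% of the regulon and 15.9% of all features had at least 1 repeated value.

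The same genes surround the other TIS11 spot, since DCN1 and ACF2 are also spotted next to feature 5416. There ACF2 (feature 5417) had values of −0.08, 0.01, −1.23, −0.15, −1.88 and 0.21 as deposited, and no value was identical to that of TIS11. The 8 features 1, 2, 20 and 21 identifiers away from feature 3902 had medians of 1.56 on array 2 and 1.71 on array 6, and of −0.46 to 0.17 on the other 4 arrays. After subtraction of these medians feature 3902 was at 2.68, 0.42, 1.13, 2.06, 2.80 and 0.99 on arrays 1 to 6. It stayed positive on each array, but the fitted value of 1.68 ± 0.36 (SE, limma, adjusted p = 0.104) no longer passed. After the same correction feature 5416 was at 0.48, 0.50, 0.44, 0.46, −0.25 and −0.32, the difference between the features on array 2 became −0.08, and the mean difference was 1.46 (exact p = 0.0625).

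The call of feature 3902 as deposited held without array 1 (2.26, adjusted p = 0.0370), 2, 3 or 5 and was lost without array 4 (2.26, adjusted p = 0.0546) or array 6 (2.14, adjusted p = 0.0710). The call was also lost with array 1 turned over (1.48, adjusted p = 0.545) and with the arrays of a day averaged (2.19, adjusted p = 0.0802). With the 4 repeated values left out only arrays 1 and 5 remained and the feature could not be tested. Between them these 2 arrays have the mutant RNA in opposite channels. The part of the shared values and of the neighbouring features in the passing value was not tested.

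**Figure D3:**
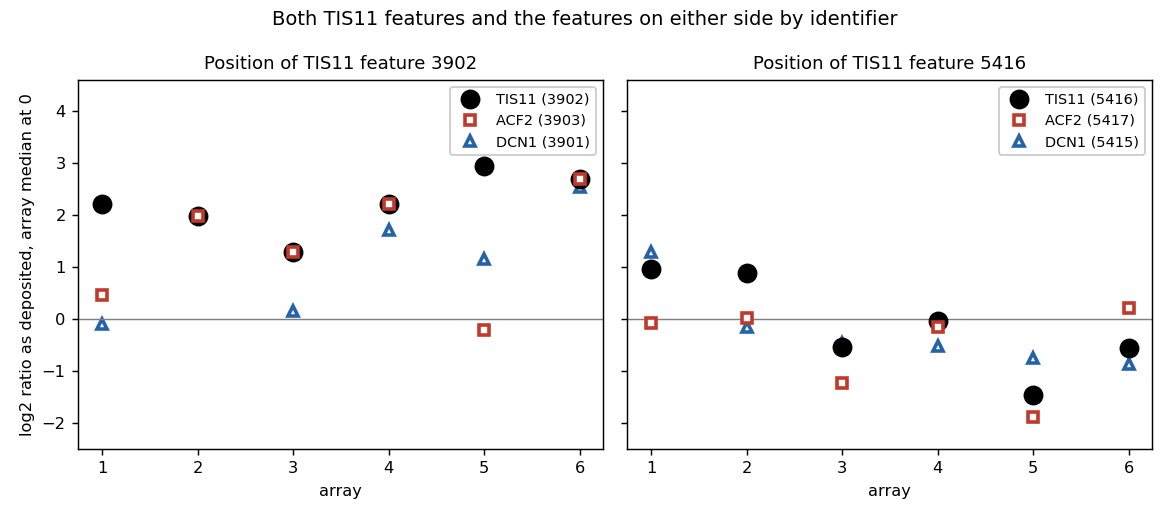
Log2 ratios as deposited on arrays 1 to 6 for the TIS11 features 3902 (left) and 5416 (right), black circles, and for the features 1 identifier after (ACF2, red squares) and 1 before (DCN1, blue triangles). On the left TIS11 and ACF2 coincide on arrays 2, 3, 4 and 6, and DCN1 lies under them on array 2; on the right TIS11 runs from −1.47 to 0.96.

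By the likeness of their values over the 6 arrays as deposited, the named features nearest to TIS11 feature 3902 were YIR044C (Pearson r = 0.99), NEL1 (r = 0.97) and FAR1 (r = 0.97). Those nearest to TIS11 feature 5416 were YBT1, ERF2 and DIC1, with r of 0.98, 0.98 and 0.97. Those nearest to FET3 were MRP8, ALD3 and CLB2, with r of 0.99, 0.98 and 0.98. These are descriptions over 6 arrays out of 6652 named features compared, and an r of at least 0.9 was reached by 31, 82 and 66 features for the 3 patterns, in that order. None of the 9 is another member of the regulon, and the nearest genes of the 2 TIS11 features differed.

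A list of other genes of iron and copper uptake and handling gave no passing feature. It held 28 genes, of which 27 were found, on 34 features, among them ferric reductases, the copper transporters on which Fet3 maturation depends, the low-affinity transporter gene FET4 and mitochondrial and vacuolar iron transporters. It also held genes that are not of uptake of these metals, such as HMX1 (haem oxygenase), CTH1 (the paralog of TIS11), ISU1 and ISU2 (iron-sulfur scaffolds) and VHT1 (the biotin transporter). In the turned reading 0 of 34 passed and 4 were at an unadjusted p under 0.05, all positive; as deposited 0 passed and 2 were under 0.05, both negative. Over all features 13.0% were under 0.05 turned and 13.5% as deposited. The medians of the list were 0.08 turned and −0.04 as deposited. The 4 positive features were those of FRE5, FRE4, SMF1 and ISU1, at identifiers 6298, 6964, 6994 and 7138. Over identifiers 5761 to 6720 and 6721 to 7680 the turned medians of all features were 0.30 and 0.58. After subtraction of the neighbour medians these 4 features were at −0.11, 1.01, 0.09 and 0.02. The smallest p in the turned reading belonged to FRE5 (feature 6298), of the ferric reductase family, at 1.24 ± 0.35 (SE, limma, adjusted p = 0.247). As deposited it belonged to VHT1 at −1.07 ± 0.38 (feature 2159, adjusted p = 0.208), and its other feature (4840) was at −0.81 ± 0.35 (adjusted p = 0.335). After subtraction of the neighbour medians these VHT1 values were −0.70 ± 0.28 and −0.33 ± 0.22 (adjusted p = 0.337 and 0.598).

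FRE5 was positive on 6 of 6 arrays when turned, at 2.08, 2.10, 0.76, 0.88, 1.05 and 0.58. In this reading 7.28% of all features with complete values kept 1 sign, positive or negative. FRE5 thus had 3 arrays on each side of 0 as deposited, where its sign followed the labelled channel. After subtraction of the median of its 8 neighbours by identifier its fitted turned value was −0.11 ± 0.46 (adjusted p = 0.969). The level of the neighbouring features moved with this value, and its part in it was not tested. For the regulon genes the same correction gave −0.51 ± 0.26 for FTR1 (adjusted p = 0.570), −0.82 ± 0.32 for FET3 (adjusted p = 0.528) and −0.96 ± 0.31 for ENB1 (adjusted p = 0.528) in the turned reading, and none of the 11 features passed.

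The 8 regulators of iron and copper genes were carried by 10 features, and 0 passed in either reading. An unadjusted p under 0.05 was reached by 1 of 10 in each reading, both negative, against 13.0% of all features turned and 13.5% as deposited. In the turned reading the median was 0.16, and the smallest p belonged to GRX3, a glutaredoxin gene through which iron status reaches Aft1. GRX3 was negative on 6 of 6 arrays at −0.93, −0.28, −1.27, −1.09, −1.22 and −0.89, with a fitted turned value of −0.95 ± 0.31 (SE, limma, adjusted p = 0.271). After subtraction of the neighbour medians it was −0.62 ± 0.21 (adjusted p = 0.528). The sign of GRX3 as deposited followed the labelled channel, with 3 arrays on each side of 0. Of all features with complete values, 7.28% kept 1 sign, positive or negative, when turned. As deposited the smallest p belonged to YAP5, an activator of iron storage in the vacuole, at −1.22 ± 0.43 (adjusted p = 0.203), with 5 of 6 arrays negative, 2 of its values repeated elsewhere on the array, and 0.50 ± 0.30 after subtraction of the neighbour medians.

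Genes for enzymes that use iron-sulfur clusters or haem and for their assembly were carried by 25 features of 19 genes. In the turned reading 0 passed, 19 features were negative and 6 positive, and the median was −0.21, beside 3568 negative and 4112 positive and a median of 0.04 over all features. These counts take both features of a gene that has 2, and they are not corrected for identifier position. The turned median of all features was −0.11 over identifiers 2881 to 3840 and 0.58 over 6721 to 7680. The part of position in the counts was not tested. An unadjusted p under 0.05 was reached by 2 positive and 3 negative features of the list, against 13.0% of all features. ACO1, the gene of the iron-sulfur enzyme aconitase, had the smallest p. Its 2 features gave nearly the same values: feature 5891 had turned values of −1.72, −0.43, −1.29, −1.11, −1.32 and −0.78, and feature 4136 had −1.55, −0.40, −1.01, −1.21, −1.35 and −0.69. The fitted turned values were −1.11 ± 0.32 (SE, limma, adjusted p = 0.251) and −1.03 ± 0.31 (adjusted p = 0.264). After subtraction of the neighbour medians they were −1.31 ± 0.25 and −1.37 ± 0.27, each with an adjusted p of 0.528. Both ACO1 features followed the labelled channel in sign as deposited, each with 3 arrays on each side of 0. When turned, 7.28% of all features with complete values kept 1 sign, positive or negative.

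As deposited 0 of these 25 features passed. The smallest p belonged to LEU1, the gene of an iron-sulfur enzyme of leucine synthesis, at −1.24 ± 0.35 (feature 2083, SE, limma, adjusted p = 0.116), and its other feature (4764) was at −0.08. Over the 16 genes of these lists and the regulon with exactly 2 features, the mean absolute gap between the features of a gene within an array ran from 0.12 for ACO1 to 2.35 for TIS11. TIS11 was the 1 gene of the 16 whose features differed the same way on all 6 arrays, as did 135 (12.3%) of all 1094 genes with 2 features and complete values, and ACO1 was the 1 gene whose features lay on the same side of 0 on all 6.

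**Figure D4:**
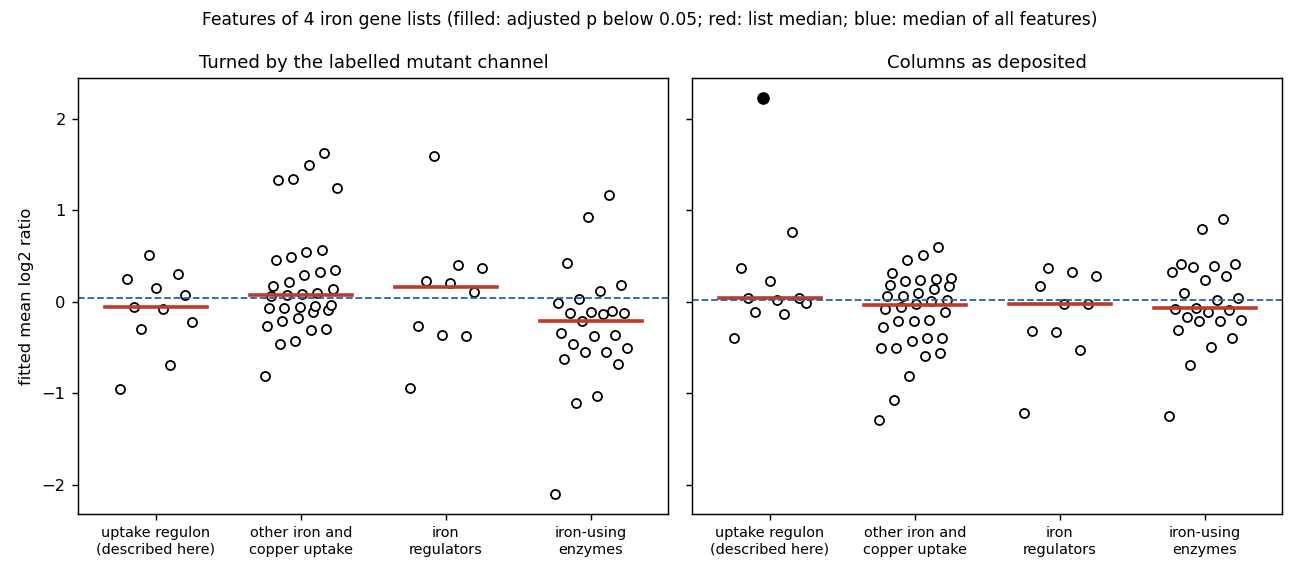
Fitted mean log2 ratio of each feature (points) in the uptake regulon (11 features), the other iron and copper uptake genes (34), the iron regulators (10) and the iron-using enzymes with their assembly genes (25), turned by the labelled mutant channel (left) and as deposited (right). Red lines are list medians, the dashed blue line is the median of all features (0.04 turned, 0.02 as deposited), and the filled point is TIS11 feature 3902, which alone has an adjusted p below 0.05.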

How the data were processed

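The deposited values are log10 ratios of the 2 channels, 1 per feature and array. The base was read from the values, some of which are exact log10 ratios of small whole numbers. Here small means a product of both terms below 10000000, at a relative tolerance of 1.2e-09. How the authors scanned, filtered or normalised the arrays was not stated. Array medians of the deposited log10 values ran from −1.18 to 1.24. Signal over background is unknown, and the number of arrays limits the precision. Of 7684 table rows, 1 had no numeric identifier and was dropped, and 3 identifiers listed more than once entered as means.

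Values were converted to log2 and centred on each array's median. A single limma 3.58.1 fit (lmFit and eBayes, R 4.3.3, two-sided) across all 7680 features held a term for the labelled channel (turned) and a term for the columns as deposited. A feature was tested if it had values on 4 or more arrays, with 2 or more for each placement of the mutant RNA. P-values were adjusted over all features (Benjamini-Hochberg), with a threshold of 0.05. The neighbourhood correction takes from each value the array's median over 8 features, those at identifier distances of 1, 2, 20 and 21 in both directions. Symbols follow the platform annotation, and locus names the R64 gene table. No coordinates or sequences are given.

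The genes and lists were chosen with earlier results of these data known, TIS11 among them. Named outside the regulon are, per list and reading, the feature with the smallest p where none passed, the identifier neighbours of TIS11, and the 3 features most like TIS11 and FET3. Alternatives left out each array, dropped the centring, rescaled or quantile-normalised the arrays, asked for values on all 6 arrays, averaged or blocked the 4 labelled days, fitted each term alone, weighted arrays, applied the neighbourhood correction, left out ratios of small whole numbers or repeated values, and turned array 1 over.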

Additional observations from a re-analysis of the deposited data

How the results depend on the processing

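The regulon had no passing feature in the turned reading under any alternative but the absence of centring, where 8 of the 11 passed; there the median of all features moved to −2.07 turned and −0.82 as deposited, and the regulon medians to −2.17 and −0.79. As deposited, TIS11 feature 3902 lost its call, leaving 0 members passing, without centring (1.39), with the arrays of a day averaged (2.19, adjusted p = 0.0802), after neighbourhood correction (1.68), with array 1 turned over (1.48, adjusted p = 0.545) and without repeated values, where it could not be tested. Leaving out 1 array at a time gave 0 to 1 members passing, 0 without array 4 or array 6. Where it passed, its adjusted p lay between 0.00133 and 0.0489 (limma). Over all features, 1 turned call became 4887 without centring, 191 with array weights, 4 without array 3, 2 with rescaled or quantile-normalised arrays, and 0 without array 4, 5 or 6, on features with values on all arrays, after neighbourhood correction or without repeated values. The 127 calls as deposited became 676 with array weights, 257 with the day as a random block, 36 without repeated values, 3 after neighbourhood correction, 2 without centring or with array 1 turned over, 0 with days averaged, and 0 to 214 with 1 array left out.

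The difference between the TIS11 features as deposited stayed positive at 1.94 to 2.61 with 1 array left out (exact p = 0.0625 each, the smallest that 5 arrays allow), at 2.19 with days averaged (exact p = 0.125, n = 4 days), 1.46 after neighbourhood correction (exact p = 0.0625), 1.94 with array 1 turned over (exact p = 0.0938) and 2.84 without repeated values (2 arrays, exact p = 0.5). Turned, it changed sign to 0.11 with rescaled arrays, 0.24 after neighbourhood correction and 0.075 with days averaged, and ran from −0.77 to 0.77 with 1 array left out.

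Of 390 single-feature values under alternatives, 63 changed sign, 2 of these with an adjusted p below 0.05 (limma), both without centring. Without centring, turned values were −1.81 for ARN1, −1.96 and −1.86 for TIS11 features 3902 and 5416, −1.60 for FIT2 and −2.04 for FIT3; values as deposited were −0.79 for SIT1, −0.072 for ARN1, −0.79 for ARN2, −0.81 for FTR1, −0.60 for FIT2 and −0.46 for FIT3. After neighbourhood correction, turned values were 0.44 for SIT1, −0.013 for TIS11 feature 5416, −0.092 for FIT2 and −0.046 for FIT3, and those as deposited −0.039 for FTR1, 0.22 for TIS11 feature 5416, 0.24 for FET3 and −0.29 for FIT3. With array 1 turned over, turned values were −0.59 and −0.072 for TIS11 features 3902 and 5416, 0.20 for FET3, 0.089 for ENB1 and −0.12 for FIT3, and those as deposited 0.41 for FET3, −0.015 for FIT2 and 0.056 for ENB1. With days averaged, ENB1 was at 0.094 turned, and ARN2, FTR1, TIS11 feature 5416 and FET3 were at −0.088, −0.090, 0.0069 and 0.020 as deposited. With array weights, ENB1 was at 0.091 turned, and FTR1, FET3 and FIT3 at −0.21, 0.32 and −0.12 as deposited. Without ratios of small whole numbers FIT3 was at −0.21 turned and FET3 at 0.37 as deposited. With rescaled arrays FTR1 and FET3 were at −0.083 and 0.015 as deposited, and with quantile normalisation FTR1 was at −0.091.

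With 1 array left out, turned values ran from −0.23 to 0.14 for SIT1, −0.022 to 0.52 for ARN1, −0.041 to 0.37 and −0.024 to 0.56 for TIS11 features 3902 and 5416, −0.38 to 0.034 for FET3, −0.28 to 0.21 for ENB1 and −0.24 to 0.39 for FIT3. As deposited they ran from −0.16 to 0.21 for SIT1, −0.10 to 0.28 for ARN2, −0.28 to 0.18 for FTR1, −0.45 to 0.14 for TIS11 feature 5416, −0.22 to 0.24 for FET3, −0.079 to 0.54 for FIT2 and −0.41 to 0.080 for ENB1. The cause of these changes was not tested. All arrays form 1 group, so there were no groups of arrays to pair by replicate number. Each array itself holds both strains, so each ratio is a comparison within an array. The labelled day was averaged or entered as a random block.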

Other observations

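Turned values changed along the identifier order. In 8 stretches of 960 identifiers, the median turned value of all features ran from −0.11 in the fourth stretch to 0.58 in the last (identifiers 6721 to 7680), and the medians as deposited ran from −0.13 to 0.11. The last stretch held 10 features of the 4 iron lists. The regulon genes there were ENB1 at −0.08 and FIT3 at 0.07.

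In the last stretch, and singled out after their values were seen, ISU1, an iron-sulfur scaffold gene (feature 7138), lay at 0.61, −5.88, −1.45, 2.45, 0.94 and 0.32 on arrays 1 to 6 as deposited. AFT2, the paralog of the iron activator gene AFT1 (feature 7158, 20 identifiers on), lay at 2.35, −6.49, −1.07, 0.96, 1.19 and −0.12. On 5 of 6 arrays their signs were the same, the exception being array 6. Their fitted turned values were 1.63 ± 0.69 and 1.59 ± 0.76 (SE, limma, adjusted p = 0.347 and 0.404), and 0.02 ± 0.40 and 0.12 ± 0.39 after subtraction of the neighbour medians (adjusted p = 0.994 and 0.955).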
